A study of Mus musculus with 6 samples.

Results

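Transcripts of 33 genes of cholesterol and fatty acid synthesis were followed in the prostates of young mice with and without an AR3 transgene. The genes were taken from a fixed list, and each was read through the probe set whose only gene symbol in the platform annotation is that gene, the one with the highest mean over the 6 arrays where a gene had several. All 33 listed genes had such a probe set, among 19938 genes followed in this way. They comprise 15 enzymes of the sterol pathway, 13 enzymes that make, elongate and desaturate fatty acids, and 5 regulators of both. Whole prostates were dissected from AR3 transgenic mice (n = 3) and wild-type littermates (n = 3), all aged 4 weeks and with no treatment named, and each mouse gave 1 Affymetrix array. AR3 is a splice variant of the androgen receptor that lacks the ligand-binding domain and can act without androgen. The promoter that drives the transgene, the founder line and the mouse strain are details not given in the sources used here. The study was set up to find genes whose expression differs between these genotypes.

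Cells make cholesterol from acetyl-CoA through mevalonate, isoprenoid diphosphates, squalene and lanosterol, and make palmitate from the same precursor through malonyl-CoA. The membrane-bound transcription factors SREBP-1 and SREBP-2 switch on both routes when sterols are low: the escort protein Scap carries them to the Golgi for cleavage, and the Insig proteins hold Scap back in the endoplasmic reticulum when sterols are plentiful. In the prostate, lipid synthesis is known as an androgen-stimulated activity of the secretory epithelium, and free cholesterol is a component of its secretion.

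Values are deposited intensities, and changes are transgenic minus wild-type on the scale of log2(intensity + 16), each with its standard error (SE) from limma and a p-value adjusted over all 28944 probe sets tested. A gene was called at an adjusted p below 0.05. At that threshold 425 probe sets were called. Array medians lay between 94.5 and 110.8, and the 95th percentile of 1035 olfactory receptor probe sets, used as a scale of background, lay between 66.9 and 91.9 on the 6 arrays. Prostate epithelial markers were bright on every array, with a summed intensity of 36356 to 37637 over 9 genes in wild-type and of 36824 to 37389 in transgenic prostates, and none was called. Most of that sum was Tgm4 and Pbsn, with wild-type means of 14092 and 9343. Pbsn (log2 change −0.21) and Hoxb13 (−0.11) lay lower in every transgenic mouse, and Epcam (0.19) and Cdh1 (0.15) higher. The other 5 overlapped, while 19.1% of all genes did not. Arrays of the same genotype differed in seminal vesicle transcripts. The sum over 5 genes was 4393, 161 and 175 in wild-type mice 1, 2 and 3. In transgenic mice 1, 2 and 3 it was 2475, 1343 and 8729. Pate4, 1 of the 5, was at 942, 25 and 37 in wild-type and at 1782, 1203 and 3026.5 in transgenic mice. It thus lay higher in every transgenic mouse, without a call (log2 change 3.88 ± 1.09, adjusted p = 0.20 in limma). The other 4 overlapped between genotypes. In transgenic mouse 2 most of the sum was Pate4, with Svs2, Svs4 and Svs5 at 24.6, 60.3 and 15.5. Fewer cells of a type and less RNA per cell cannot be told apart in whole tissue.

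In transgenic prostates 3 of the 33 genes were called, all higher: the sterol dehydrogenase gene Nsdhl (2.36-fold in mean intensity), the fatty acid desaturase gene Fads2 (1.74-fold) and the stearoyl-CoA desaturase gene Scd3. The wild-type mean of Scd3 (59.7) lay below the background scale, so no fold is given for it, and its log2 change depends on the added constant (1.04 with 1 and 0.60 with 64). None was called lower. Among all genes 1.64% were called, 1.18% higher and 0.456% lower. The rate-controlling Sqle of the sterol pathway, both SREBP genes and the fatty acid synthase gene Fasn were not called. For the 30 genes that were not called, every 95% interval of the log2 change lay between −0.60 (Cyp51) and 0.54 (Elovl5), so none of these intervals reached the smallest of the 3 called changes, 0.75. Without transgenic replicate 2 or transgenic replicate 3 the count fell to 1, and in both cases the gene left was Nsdhl. It was also 1, again Nsdhl, without the array with most seminal vesicle signal in each genotype (wild-type replicate 1 and transgenic replicate 3), a choice made after the data were seen.

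**Figure D1:**
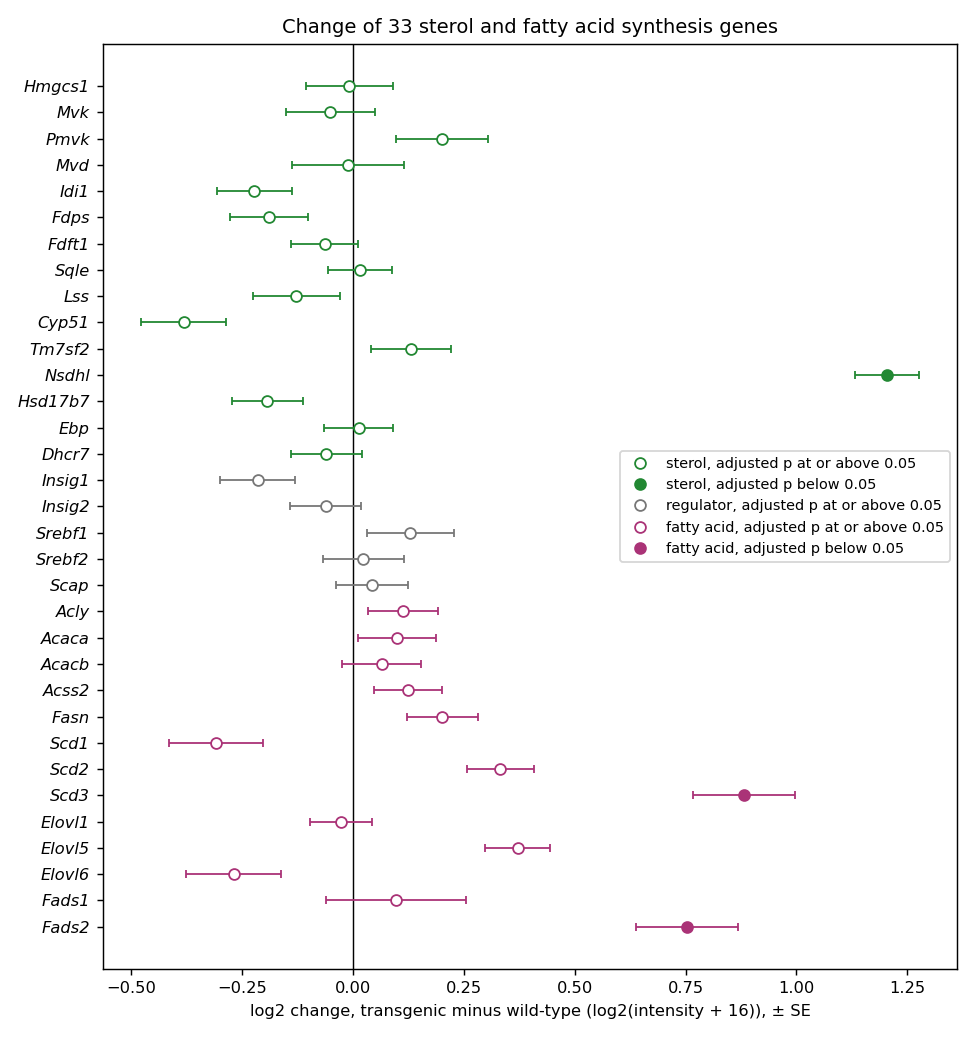
Log2 change (transgenic minus wild-type, log2(intensity + 16)) of each of the 33 genes, with bars of 1 SE and 3 mice per genotype. Filled points have an adjusted p below 0.05: Nsdhl at 1.20, Scd3 at 0.88 and Fads2 at 0.75 (Scd3 from a wild-type mean below the background scale), while the other genes lie between −0.38 and 0.37.

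Counted by arm, the sterol enzymes held 1 called gene of 15 and had a median log2 change of −0.05, the regulators held 0 of 5 with a median of 0.02, and the fatty acid enzymes held 2 of 13 with a median of 0.11. The median over all genes tested was 0.01. At an unadjusted p under 0.05 (limma), 12 of the 33 genes stood out, 6 higher and 6 lower, against 12.2% of all genes, 6.91% higher and 5.27% lower. By arm these were 1 higher and 3 lower sterol enzymes, 1 lower regulator, and 5 higher and 2 lower fatty acid enzymes. The 3 transgenic values lay wholly above the 3 wild-type values for 7 genes and wholly below for 7. Among all genes 19.1% were separated in this way, 10.5% above and 8.61% below. Of the 7 above, 6 were fatty acid enzymes, and of the 7 below, 4 were sterol enzymes. The per-array median of the fatty acid arm, relative to the wild-type mean, was 0.00, 0.00 and −0.01 in wild-type mice 1, 2 and 3 and 0.10, 0.16 and 0.18 in transgenic mice 1, 2 and 3. The same median of the sterol arm was 0.03, 0.03 and 0.00 in wild-type and 0.06, −0.10 and −0.08 in transgenic mice, so the genotypes overlapped. Over all genes it was −0.05, 0.01 and 0.04 in wild-type and 0.01, 0.02 and 0.01 in transgenic mice. Since each gene is set against its own wild-type mean, wild-type medians lie near 0 largely by construction.

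Nsdhl, an X-linked gene, encodes the sterol dehydrogenase that takes part in removing a pair of methyl groups from the sterol ring, after the lanosterol demethylase has acted. Its intensity was 356, 330 and 341 in wild-type mice 1, 2 and 3, and 803, 793 and 829 in transgenic mice 1, 2 and 3. The lowest transgenic value was far above the highest wild-type value, and the 3 mice of each genotype lay close together. The means were 342 ± 13.1 (SD, n = 3) and 808 ± 18.6 (SD, n = 3), a log2 change of 1.20 ± 0.07 (SE) at adjusted p = 1.3e-04 (limma). By p-value Nsdhl stood at rank 47 among the 19938 genes. It was called under all 16 alternative settings, with a log2 change from 1.10 to 1.24.

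Neither of the other enzymes measured in the same demethylation steps was called. Hsd17b7, the ketoreductase that acts after Nsdhl, measured 122, 120 and 134 in wild-type and 112, 110 and 101 in transgenic mice, so its transgenic values all lay lower. Its log2 change was −0.19 ± 0.08 (adjusted p = 0.38). Msmo1, the methyl oxidase that acts before Nsdhl, is not among the 33 genes and was singled out after its values were seen. It had a log2 change of −0.14 ± 0.10 (adjusted p = 0.63). Cyp51, the lanosterol demethylase whose product enters these steps, was at 225, 203 and 235 in wild-type and at 182, 151 and 165 in transgenic mice, which do not overlap. Its log2 change of −0.38 ± 0.10 was the most negative of the 33 genes and did not pass the threshold (adjusted p 0.15, unadjusted p 0.0044).

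**Figure D2:**
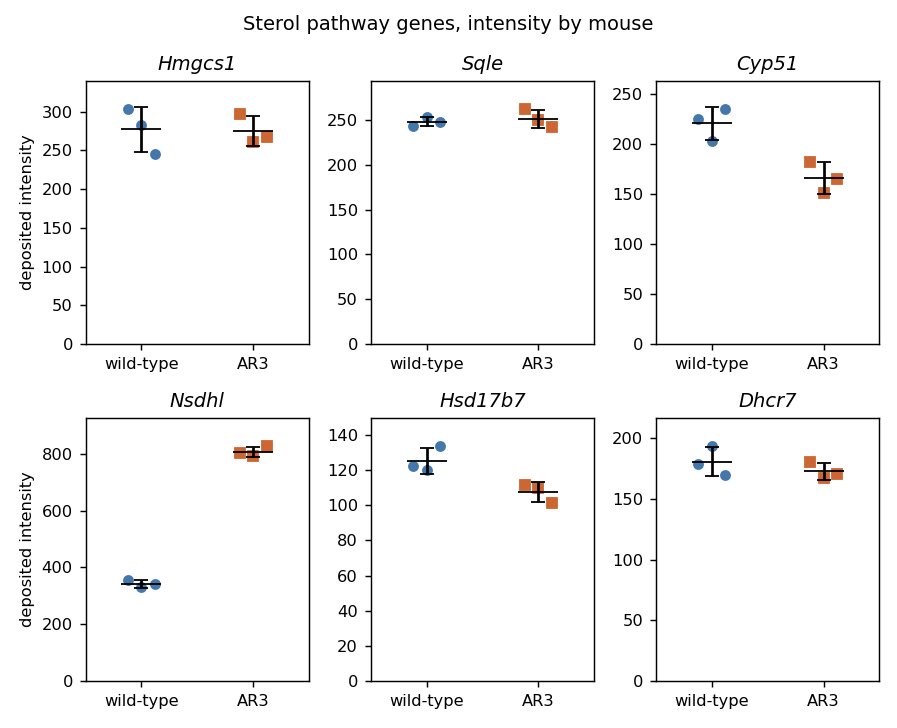
Deposited intensity of 6 sterol pathway genes in each mouse (circles, wild-type; squares, AR3 transgenic; 3 mice each), with the mean and SD. Only Nsdhl is called, with transgenic values from 793 to 829 against 330 to 356 in wild-type; Cyp51 and Hsd17b7 lie lower in every transgenic mouse without passing the threshold.

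The early enzymes of the pathway, which build mevalonate and the isoprenoid units, gave no call. Hmgcs1, which condenses acetyl units into the precursor of mevalonate, measured 303, 283 and 246 in wild-type and 297, 261 and 268 in transgenic mice. These ranges overlap, and its log2 change was −0.01 ± 0.10. The mevalonate kinase Mvk (−0.05 ± 0.10), the phosphomevalonate kinase Pmvk (0.20 ± 0.10) and the decarboxylase Mvd (−0.01 ± 0.13) had adjusted p-values of 0.89, 0.49 and 0.98. Idi1, the isomerase of the isoprenoid units, was at 242, 270 and 237 in wild-type and at 217, 220 and 198 in transgenic mice. Every transgenic value of Idi1 lay below every wild-type value, with a log2 change of −0.22 ± 0.08 (adjusted p = 0.35). The other probe set of Idi1 also separated the genotypes, with a log2 change of −0.30 ± 0.09 (adjusted p = 0.22). Fdps, which makes farnesyl diphosphate, went from 1056 ± 68.0 (SD, n = 3) to 924 ± 63.7 (SD, n = 3) with no overlap between genotypes (adjusted p = 0.45).

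The enzymes at and after squalene also gave no call apart from Nsdhl. Fdft1, the squalene synthase, had a log2 change of −0.06 ± 0.08, and its other probe set one of −0.02 ± 0.08. Sqle, the squalene epoxidase that limits the flow through this segment, measured 243, 253 and 247 in wild-type and 262, 249 and 242 in transgenic mice. The 6 values overlap, and the change of 0.02 ± 0.07 has a 95% interval from −0.15 to 0.18. Lss, the cyclase that forms lanosterol, had a log2 change of −0.13 ± 0.10, and the sterol reductase Tm7sf2 one of 0.13 ± 0.09. The sterol isomerase Ebp (0.01 ± 0.08) and Dhcr7, the reductase that yields cholesterol itself (−0.06 ± 0.08), had adjusted p-values of 0.97 and 0.82.

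Among the regulators, the genes of both transcription factors overlapped between genotypes. Srebf1, which encodes SREBP-1, was at 417, 392 and 332 in wild-type and at 398, 427 and 422 in transgenic mice. Its log2 change was 0.13 ± 0.10 (adjusted p = 0.66). Srebf2, which encodes SREBP-2, had a log2 change of 0.02 ± 0.09, and the escort gene Scap one of 0.04 ± 0.08. Insig1, itself a sensitive SREBP target, measured 641.5, 639 and 619 in wild-type and 598, 522 and 514 in transgenic mice. All transgenic values of Insig1 lay lower, with a log2 change of −0.21 ± 0.08, an adjusted p of 0.36 and an unadjusted p of 0.035. Insig2, the isoform less tied to SREBP activity, had a log2 change of −0.06 ± 0.08.

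The enzymes that supply and assemble new fatty acids had small positive changes, and none was called. Acly, which releases acetyl-CoA from citrate in the cytosol, had a log2 change of 0.11 ± 0.08, and Acss2, which makes acetyl-CoA from acetate, one of 0.12 ± 0.08. The acetyl-CoA carboxylase genes Acaca and Acacb had changes of 0.10 ± 0.09 and 0.07 ± 0.09; the other probe set of Acaca had the opposite sign, at −0.10 ± 0.09. Fasn, which assembles palmitate, measured 665, 693 and 637 in wild-type and 715, 798 and 789.7 in transgenic mice. The genotypes of Fasn do not overlap, but its log2 change of 0.20 ± 0.08 had an adjusted p of 0.37.

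The 3 stearoyl-CoA desaturase genes of the set, whose products place the first double bond in saturated fatty acids, had changes of different sign. Scd3 was at 49.9, 56.7 and 72.6 in wild-type mice 1, 2 and 3 and at 119, 121 and 127.5 in transgenic mice 1, 2 and 3. Its wild-type mean of 59.7 ± 11.7 (SD, n = 3) lay below the background scale of 66.9 to 91.9, while its transgenic mean of 122 ± 4.53 (SD, n = 3) lay above it. The log2 change was 0.88 ± 0.11 at adjusted p = 0.0094 (limma). Leaving out wild-type replicate 2 gave an adjusted p-value of 0.060, leaving out transgenic replicate 2 gave 0.058 and leaving out transgenic replicate 3 gave 0.065, so the call did not hold in these cases. It also did not hold (0.092) when wild-type replicate 1 and transgenic replicate 3 were both left out.

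Scd2 lay higher and Scd1 lower in every transgenic mouse, and neither was called. Scd2 was at 2881, 3067 and 2798 in wild-type and at 3529, 3733 and 3757 in transgenic mice, a log2 change of 0.33 ± 0.08 (adjusted p = 0.11). Scd1 was at 1508, 1855 and 1928 in wild-type and at 1375, 1473 and 1395 in transgenic mice, a log2 change of −0.31 ± 0.11 (adjusted p = 0.30). Signal shared between these related genes was not separated, since probe sequences were not used here.

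Fads2, which catalyses the first desaturation of the essential polyunsaturated fatty acids, was at 188, 237 and 194.5 in wild-type mice 1, 2 and 3 and at 316, 384 and 375 in transgenic mice 1, 2 and 3. All transgenic values lay above all wild-type values. The means were 206 ± 26.7 (SD, n = 3) and 358 ± 36.7 (SD, n = 3), a log2 change of 0.75 ± 0.11 at adjusted p = 0.020 (limma). The adjusted p-value rose to 0.061 when wild-type replicate 3 was left out, to 0.117 when transgenic replicate 2 was, to 0.119 when transgenic replicate 3 was, and to 0.196 when wild-type replicate 1 and transgenic replicate 3 both were, so the call was lost in each. Fads1, which acts later on the same fatty acids, was at 187, 259.6 and 168 in wild-type mice and at 190.2, 229 and 234 in transgenic mice. Its values overlap, with a log2 change of 0.10 ± 0.16.

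The elongase genes also had changes of different sign. Elovl5, which lengthens polyunsaturated fatty acids, was at 839, 796 and 807 in wild-type and at 1029.5, 1039 and 1106 in transgenic mice. The genotypes do not overlap, and the log2 change of 0.37 ± 0.07 missed the threshold (adjusted p = 0.066). Elovl6, which lengthens palmitate, was at 121, 105.5 and 130.2 in wild-type and at 83.4, 104.7 and 99.8 in transgenic mice, with a log2 change of −0.27 ± 0.11 (adjusted p = 0.37). Elovl1, which serves very long saturated chains, had a log2 change of −0.03 ± 0.07.

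**Figure D3:**
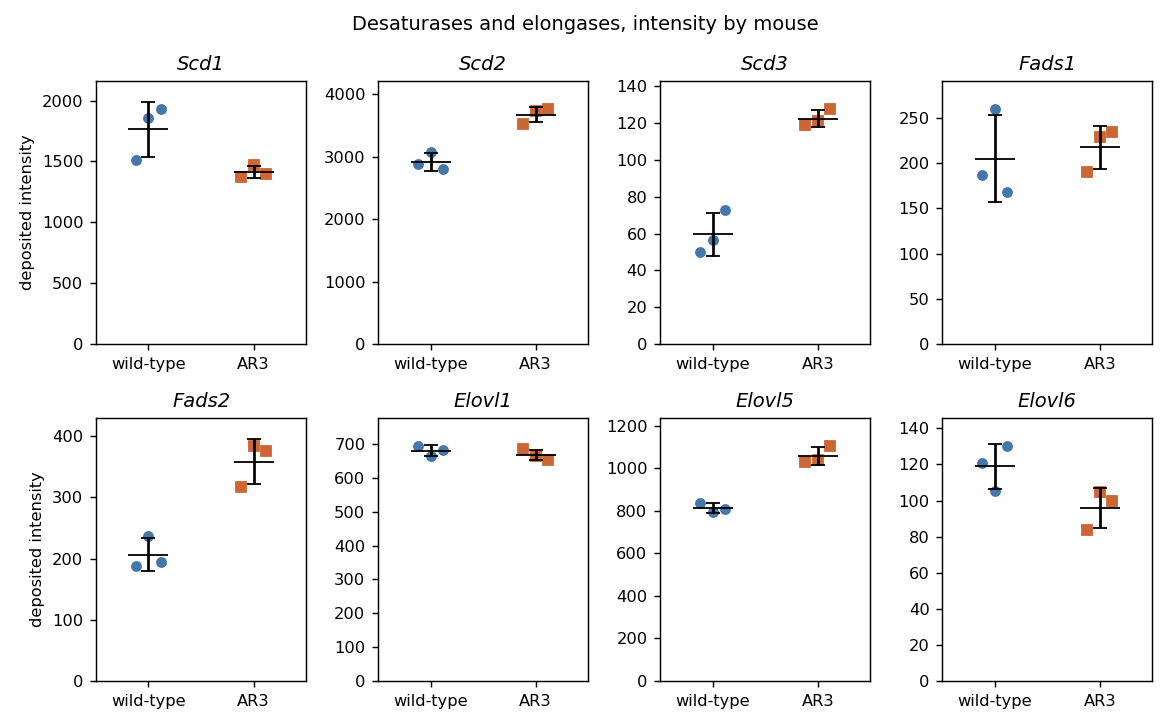
Deposited intensity of 8 desaturase and elongase genes in each mouse (circles, wild-type; squares, AR3 transgenic; 3 mice each), with the mean and SD. Scd3 and Fads2 are called higher; Scd2 and Elovl5 lie higher and Scd1 and Elovl6 lower in every transgenic mouse without a call, and Fads1 and Elovl1 overlap.

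Unequal change of related genes was compared as the within-array difference of their log2 values, for 10 pairs. The difference Fads2 minus Fads1 was 0.01, −0.12 and 0.19 in wild-type and 0.69, 0.71 and 0.65 in transgenic mice, a shift of 0.66. The difference Scd2 minus Scd1 was 0.93, 0.72 and 0.53 in wild-type and 1.35, 1.33 and 1.42 in transgenic mice, a shift of 0.64. For Elovl5 minus Elovl6 the shift was also 0.64, from 2.63 ± 0.12 to 3.27 ± 0.13 (SD, n = 3 each). Each of these 3 shifts had an exact two-sided permutation p of 0.1, the smallest that 3 mice against 3 can give, and 0.125 after adjustment over the 10 pairs, so none could pass the threshold. The difference separated the genotypes in 8 of the 10 pairs, and the share among other gene pairs was not computed. Each of these 8 pairs holds a gene whose own values already separated the genotypes. The count therefore restates those single-gene separations and adds no evidence of unequal change. The difference overlapped for Acaca minus Acacb (shift 0.03) and for Srebf1 minus Srebf2 (shift 0.11), whose genes each overlapped alone. The 10 pairs are not independent, since the Scd genes fill 3 of them and the Elovl genes another 3, and the pairs with Scd3 rest on wild-type values below the background scale.

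The DNA just upstream of the 3 called genes is shown beside that of Hmgcs1, a textbook SREBP target that was not called, because SREBP, NF-Y and Sp1 sites in this stretch are the known shared control of the pathway. Sequences are RefSeq windows of GRCm38.p6, the 250 bases before the annotated start, written 5′ to 3′ on the gene's strand. Capitals mark every match on either strand to TCACCCCAC (sterol regulatory element core), TCACNCCAC (the same with 1 base free, which includes the former), TCACGTGA (an E-box), CCAAT (bound by NF-Y), GGGCGG (bound by Sp1) and ACANNNTGT (androgen response element core).
Nsdhl, chrX:72918271-72918520, plus strand: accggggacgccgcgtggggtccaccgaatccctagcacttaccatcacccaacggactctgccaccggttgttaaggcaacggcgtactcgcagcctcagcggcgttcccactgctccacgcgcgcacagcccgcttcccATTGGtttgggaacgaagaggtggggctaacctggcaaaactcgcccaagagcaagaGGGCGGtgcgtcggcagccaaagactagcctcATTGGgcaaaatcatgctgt
Scd3, chr19:44203038-44203287, plus strand: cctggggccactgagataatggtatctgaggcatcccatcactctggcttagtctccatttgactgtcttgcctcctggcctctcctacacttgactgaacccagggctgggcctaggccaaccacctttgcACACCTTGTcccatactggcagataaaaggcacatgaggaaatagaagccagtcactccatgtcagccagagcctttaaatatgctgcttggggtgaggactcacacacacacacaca
Fads2, chr19:10101504-10101753, minus strand: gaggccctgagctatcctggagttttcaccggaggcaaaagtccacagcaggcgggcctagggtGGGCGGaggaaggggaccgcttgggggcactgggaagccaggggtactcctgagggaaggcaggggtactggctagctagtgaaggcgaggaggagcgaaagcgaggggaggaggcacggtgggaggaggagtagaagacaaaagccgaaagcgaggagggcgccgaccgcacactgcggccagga
Hmgcs1, chr13:119690101-119690350, plus strand: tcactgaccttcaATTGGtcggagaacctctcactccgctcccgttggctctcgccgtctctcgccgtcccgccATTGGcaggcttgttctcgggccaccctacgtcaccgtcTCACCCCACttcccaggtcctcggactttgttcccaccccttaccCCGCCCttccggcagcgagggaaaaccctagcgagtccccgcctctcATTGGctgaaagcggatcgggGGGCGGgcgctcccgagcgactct

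The Nsdhl window held 2 CCAAT matches and 1 GGGCGG match, that of Fads2 held 1 GGGCGG match, and that of Scd3 held 1 ACANNNTGT match and none of the others. The Hmgcs1 window held 1 match to the sterol regulatory element core, 3 to CCAAT and 2 to GGGCGG. RefSeq windows were at hand for 27 of the 33 genes, 36 windows in all since some genes have several starts. CCAAT was found in 61.1% of these 36 windows against 33.8% of all 32851 windows of the same length, and GGGCGG in 66.7% against 32.7%. The sterol regulatory element core was in 1 of the 36 (2.78%, against 0.496% of all), as was ACANNNTGT (2.78% against 5.84%), and TCACGTGA was in 0 (against 0.785%). These are matches of letters, and binding was not measured.

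The genes next to the 3 called genes were read in chromosome order, 3 genes with a value here on each side. The neighbours of Nsdhl, among them Cetn2 (−0.05 ± 0.08) and Zfp185 (0.17 ± 0.09), had log2 changes between −0.11 and 0.17, and none was called. Of these 6 genes, 4 (Gabra3, Gabrq, Pnma5 and Pnma3) had both means below the upper end of the background scale, 91.9, where a change may not be seen. Beside Scd3, the ion channel gene Pkd2l1 was called higher, from 45.7 ± 4.68 (SD, n = 3) to 79.6 ± 6.86 (SD, n = 3), with a log2 change of 0.63 ± 0.09 (adjusted p = 0.016). Both means of Pkd2l1 also lay below 91.9. Its adjusted p-value passed the threshold no longer when wild-type replicate 2 (0.088), transgenic mouse 1 (0.076) or transgenic mouse 3 (0.095) was left out, nor when wild-type replicate 1 and transgenic replicate 3 both were (0.168). On the other side of Scd3 lie Scd2, Scd4 (0.10 ± 0.12, with both means below 91.9) and Scd1. Beside Fads2, the desaturase gene Fads3 had a log2 change of 0.09 ± 0.12. Fen1, a flap endonuclease of DNA replication on the far side of Fads1, had one of −0.75 ± 0.16 (adjusted p = 0.082).

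**Figure D4:**
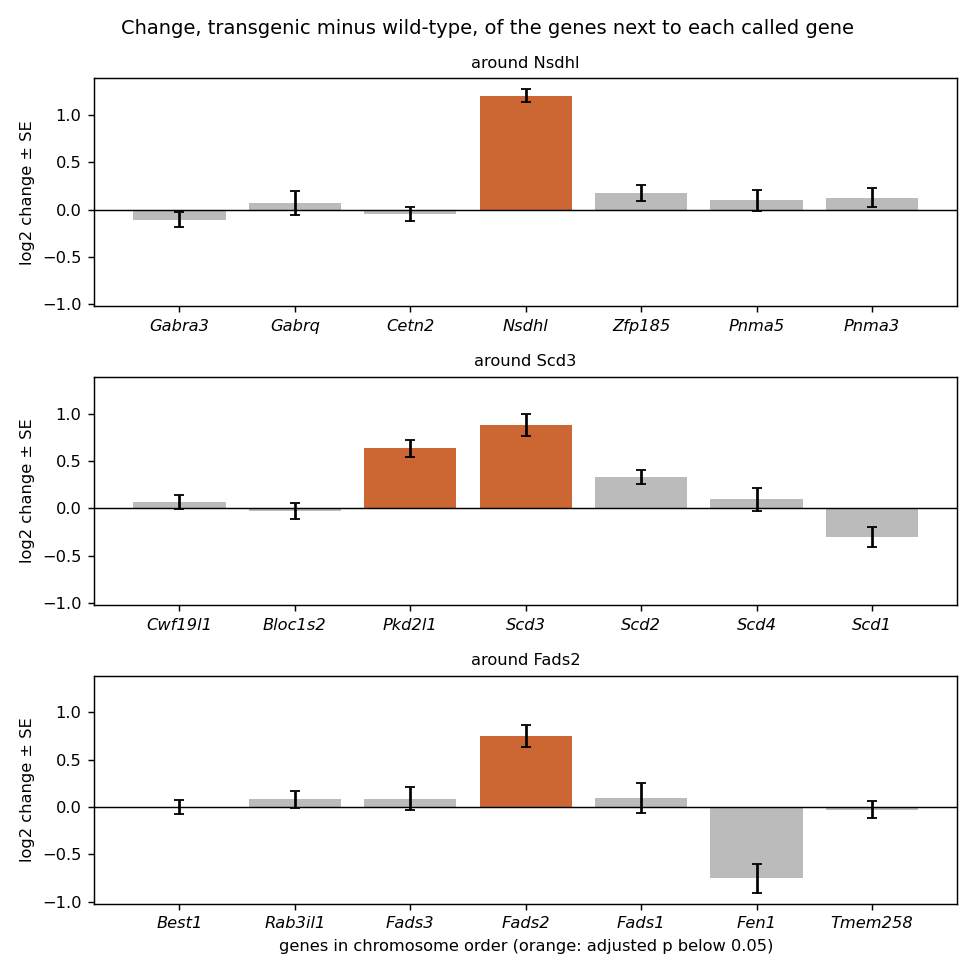
Log2 change (transgenic minus wild-type, bars from 0, with 1 SE; 3 mice per genotype) of Nsdhl, Scd3 and Fads2 and of the 3 measured genes on each side, in chromosome order. Orange bars have an adjusted p below 0.05: the 3 called genes and Pkd2l1 (0.63).

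Other genes of the same biology were read from 3 further lists, where 1.18% of all genes were called higher and 0.456% lower. Of 20 other sterol pathway genes, which include uptake, transport and processing of sterols, 1 was called higher and 0 lower, with a median log2 change of 0.03. That gene was Npc1, which exports cholesterol from lysosomes, at 235, 223 and 196 in wild-type and at 626, 662 and 677 in transgenic mice. The means were 218 ± 19.7 (SD, n = 3) and 655 ± 26.2 (SD, n = 3), a 3.00-fold difference, with a log2 change of 1.52 ± 0.09 at adjusted p = 1.1e-04 (limma), and it was called under all 16 alternatives. Its lysosomal partner Npc2 had a log2 change of 0.16 ± 0.08 (adjusted p 0.48). The sterol carrier gene Stard5 had one of 0.41 ± 0.09 (adjusted p 0.088), the dolichol synthesis gene Nus1 one of −0.19 ± 0.08 (adjusted p 0.41), and the ubiquitin-conjugating enzyme gene Ube2g2 one of −0.22 ± 0.11 (adjusted p 0.48).

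Of 33 other fatty acid and glycerolipid genes, 1 was called higher and 0 lower, against 1.18% and 0.456% of all genes. Their median log2 change was 0.08. Mid1ip1, whose product stimulates acetyl-CoA carboxylase, was at 275, 302 and 235 in wild-type and at 546, 541 and 621.5 in transgenic mice. Its log2 change was 1.03 ± 0.11 (adjusted p = 0.0029); it was not called (adjusted p = 0.054) without wild-type replicate 1 and transgenic replicate 3 together. The other probe set of Mid1ip1 had a log2 change of −0.20 ± 0.10 (adjusted p = 0.49), so the 2 probe sets of this gene disagree. The acyl-CoA synthetase gene Acsl4 had a log2 change of 0.32 ± 0.09 (adjusted p 0.18), the acyl-CoA dehydratase family gene Hacd4 one of 0.33 ± 0.08 (adjusted p 0.14), and the malic enzyme gene Me1, a source of NADPH for lipid synthesis, one of 0.28 ± 0.09 (adjusted p 0.25).

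None of 14 cholesterol efflux and storage genes was called in limma, while 4 had an unadjusted p under 0.05, all higher, where 6.91% of all genes were higher at that p. The median log2 change of the 14 genes was 0.11. The sterol hydroxylase gene Cyp27a1 had a log2 change of 0.38 ± 0.08 (adjusted p 0.075), the efflux pump gene Abca1 one of 0.36 ± 0.11 (adjusted p 0.22), the hydroxylase gene Ch25h one of 0.28 ± 0.09 (adjusted p 0.29) and the apolipoprotein gene Apoe one of 0.25 ± 0.09 (adjusted p 0.31). Both means of Ch25h, 31.9 and 41.8, lay below the background scale.

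**Figure D5:**
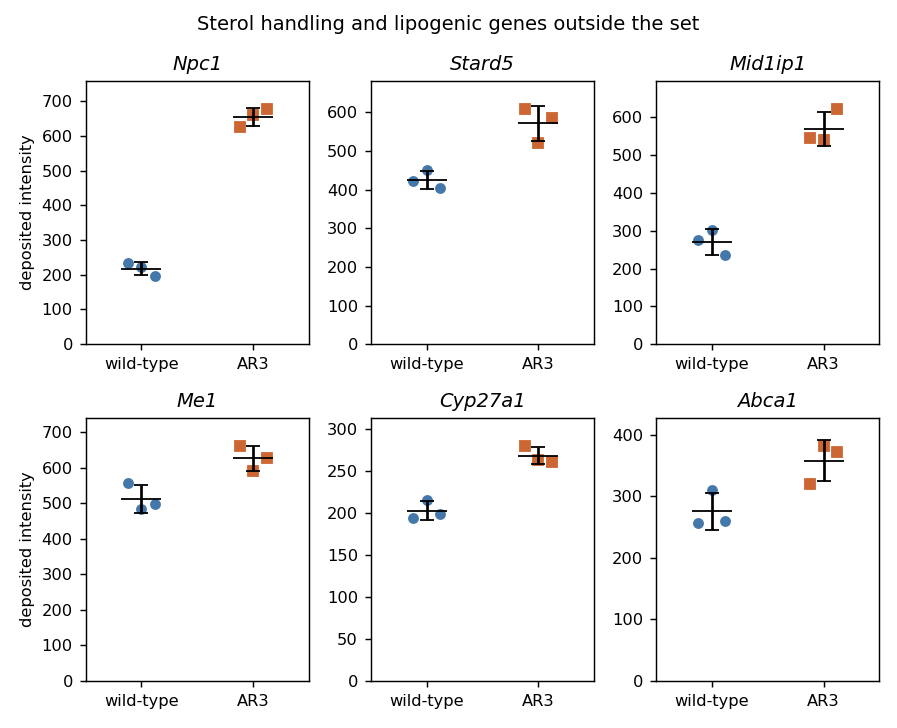
Deposited intensity of 6 genes of sterol handling and fatty acid supply in each mouse (circles, wild-type; squares, AR3 transgenic; 3 mice each), with the mean and SD. Npc1 (196 to 235 against 626 to 677) and Mid1ip1 are called higher; Stard5, Me1, Cyp27a1 and Abca1 lie higher in every transgenic mouse without a call.

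Markers of other cell types with high lipid turnover were read beside these changes, where 1.18% of all genes were called higher and 0.456% lower. None of 13 adipocyte markers was called, their summed intensity was 1224 to 1412 in wild-type and 1385 to 1392.5 in transgenic prostates, and the means of 4 lay below 66.9, the lower end of the background scale, the defining marker Adipoq among them. None of 7 Schwann cell and myelin markers was called, with sums of 1112 to 1320.02 and of 1238 to 1359. The means of 3 lay below 66.9, Egr2 among them. Pmp22 (log2 change 0.67) and Egr2 (0.06) lay higher in every transgenic mouse, Gjb1 (−0.29) lay lower, and the other 4 overlapped. Of 9 macrophage markers, the lysosomal protease Ctss was called higher (0.91 ± 0.16, adjusted p 0.036), all 9 changes were positive, with a median of 0.34, and the sums did not overlap, at 843 to 1079 in wild-type and 1224 to 1403 in transgenic prostates. Besides Ctss, C1qb (0.73) lay higher in every transgenic mouse, and the other 7 overlapped. The means of 4 macrophage markers lay below 91.9, the upper end of the background scale, and 1 of these below 66.9. Ctss kept its call when wild-type replicate 1 was left out. Its call was lost when any of the other 5 arrays was left out, at adjusted p-values up to 0.175 (limma). The part of the macrophage difference in the changes of Nsdhl, Scd3, Fads2 and Npc1, and in the values of Apoe, Abca1, Ch25h and Cyp27a1, was not tested. None of 5 urothelial markers was called, but their sums did not overlap either, at 3066 to 3786 in wild-type and 2401 to 2927 in transgenic prostates. Most of that signal was from Upk1a, a uroplakin gene, with means of 2287 in wild-type and 1416 in transgenic mice. Upk1a was lower in every transgenic mouse, with a log2 change of −0.68 (adjusted p = 0.083 in limma). The other 4 overlapped between genotypes, with log2 changes of 0.01 (Upk1b), 0.23 (Upk3b), −0.13 (Upk2) and −0.11 (Upk3a). The part of the Upk1a difference in the results was not tested. None of the smooth muscle (5) or skeletal muscle (5) markers was called. All 5 smooth muscle markers overlapped between genotypes. Of the skeletal muscle markers, Myh4 and Tnnt3 lay lower in every transgenic mouse, each with a log2 change of −0.29, and the other 3 overlapped. Both means of Myh4, 77.5 and 60.4, lay below the upper end of the background scale.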

How the data were processed

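The deposited table holds 1 intensity per probe set and array on a linear scale, judged from the values themselves. Per the labels' protocols, column-purified total RNA was DNase-treated and biotin-labelled for Affymetrix whole-transcript arrays; how values were summarised and normalized is not given in the sources used here, and nothing was normalized again in the main fit. Of 35512 probe sets, 6568 below the gene-level identifier range were treated as controls (known of this platform), and the other 28944 entered limma 3.58.1 (lmFit, eBayes; R 4.3.3) as log2(intensity + 16), 3 against 3 arrays, two-sided, Benjamini-Hochberg over all probe sets, no filter on dim values. The code of the fit was run on simulated data with independent normal noise and changes planted in brighter probe sets. That run does not cover outlying arrays or dim genes. Symbols came from the platform annotation. They were replaced by the RefSeq symbol of the same gene identifier where there was one, for 19856 genes. RefSeq (GRCm38.p6) also gave gene order and upstream sequence. The genes and lists were chosen with earlier results of these data known. Named are all 33 genes and, of each further list, the called genes and up to 4 with the smallest p; others are said to be singled out. Arrays carry no depth; their number limits precision. Pairing of the arrays by mouse number was not seen, though so few arrays test it only weakly.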

Additional observations from a re-analysis of the deposited data

How the results depend on the processing

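The count of called genes among the 33 was 3 in the main fit and 5 with an added constant of 64, without the dimmest 40% of probe sets, with robust variances that follow intensity, and with array weights; Scd2 and Elovl5 joined in the first 3 of these, and Elovl5 and, lower, Scd1 with array weights. It lay between 1 and 3 when single arrays were left out, and was 1 without wild-type replicate 1 and transgenic replicate 3 together. The count of called probe sets, 425, became 678 with those robust variances, 1202 with array weights, 237 without those 2 arrays, and 234 to 519 without single arrays. With a replicate block for the mouse number it was 250, and the same 3 genes of the set were called. Deviations of same-numbered mice correlated at −0.04, 0.05 and −0.16, and 1 of 6 arrays lay closest to its own number. No pairing by number was thus seen, but so few arrays test it only weakly, and a shared litter or batch was not tested. Median centring moved the split of called probe sets from 305 higher and 120 lower to 314 and 264, array weights moved it to 686 and 516, and leaving out transgenic replicate 3 to 193 and 41; with the block it was 200 and 50. The median change of the fatty acid arm, 0.11, was 0.075 after median centring and 0.10 to 0.15 without single arrays, while the median of all probe sets went from 0.01 to −0.03 on centring; that of the sterol arm stayed between −0.09 and 0.00. The causes were not tested. Over 16 alternatives, 502 of 528 changes of the 33 genes kept their sign, and the other 26 belonged to 9 genes that were never called. Scd3 and Fads2 were each called in 12 of the 16.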
